A study of Mus musculus with 6 samples.

Results

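The genes described here encode titin, proteins of the M-band and thick filament, and some of their partners in the sarcomere. They were taken by name from the deposited gene table as Ttn, Obsl1, Myom1, Myom2, Myom3, Mybpc3, Nebl, Smyd1 and Lrrc10, which are 9 of 54532 genes, and each name stood on a single gene. The label of titin, M-band and thick filament holds for 6 of them, since Nebl and Lrrc10 encode Z-disc proteins and Smyd1 a methyltransferase that acts on myosin folding and on chromatin. All 9 were detected in every library.

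In the sarcomere, the contractile unit of heart muscle, myosin-containing thick filaments slide between actin-containing thin filaments. Titin is a giant elastic protein that runs from the Z-disc, where thin filaments are anchored, to the M-band, where thick filaments are linked to each other. Its I-band part acts as a spring, its A-band part lies along the thick filament beside myosin-binding protein C, and at the M-band its end is bound by myomesins and other cross-linking proteins.

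Polyadenylated RNA of whole mouse hearts was sequenced at 4 days of age. The libraries came from 3 Wtapflox/flox mice, called Wtap-flox, and 3 mice labelled Wtap-CKO, the conditional knockout of Wtap, and the submitters described each group as independent biological replicates. WTAP is a regulatory subunit of the methyltransferase complex for m6A, a methyl mark on adenosines of messenger RNA, and the series asks about its effect on heart development. The sources used here do not give the Cre driver, the deleted exons or the strain.

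Values are FPKM, counts scaled by gene length and by a size for each library. Each difference is Wtap-CKO over Wtap-flox on the log2(FPKM + 1) scale. Each library held between 15649028 and 18045599 counts, of reads or of read pairs. The size implied by the FPKM was above these counts in every Wtap-flox library, with 17431182 against 16589331 in Wtap-flox 1. It was below them in every Wtap-CKO library, with 16148068 against 16485304 in Wtap-CKO 1. The part of this scaling in the differences was not tested. Wtap itself was not lower in the libraries labelled Wtap-CKO. It stood at 7.77, 8.74 and 10.9 FPKM in Wtap-flox and at 9.32, 7.75 and 9.46 FPKM in the libraries labelled Wtap-CKO (log2 fold change -0.04, adjusted p = 0.893, limma). These values count the whole gene and do not check the labels, so every direction below rests on the labels alone. Wtap-CKO 3 stood somewhat apart, with correlations of 0.965 and 0.957 to Wtap-CKO 1 and 2, while that between Wtap-CKO 1 and 2 was 0.979 and those within Wtap-flox were 0.975 to 0.982 (log2 scale, tested genes), and values without it are given where they matter. Markers of the working heart muscle summed to between 12717 and 16152 FPKM in Wtap-flox and between 14379 and 18920 FPKM in Wtap-CKO, of which Actc1 alone gave 6218 to 10337 FPKM. Of these 8 markers, Ryr2, the calcium release channel (log2 fold change -0.97, adjusted p = 0.0233, limma), and the oxygen carrier Mb (-0.80, adjusted p = 0.0290) were lower, 0 were higher (0 also at an unadjusted p under 0.05), and the median was -0.22. The part of this in the lower value of Nebl was not tested. Markers of skeletal muscle fibres summed to at most 3.34 FPKM in any library, and Myh2, Myh4 and Actn3 were below 0.1 FPKM throughout. In whole hearts, fewer cells of a type and less RNA per cell cannot be told apart.

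Of the 9 genes, 8 reached a mean of 1 FPKM and were tested, and 2 of them changed. Nebl, which encodes nebulette, was lower in the hearts labelled Wtap-CKO, and Lrrc10, which encodes a leucine-rich repeat protein of heart muscle, was higher. Ttn, Obsl1, Myom1, Myom2, Mybpc3 and Smyd1 did not pass the test, and Myom3 was too low to be tested. Among all 12568 genes tested, 16.6% were called at an adjusted p under 0.05, made up of 9.91% called higher and 6.69% called lower, so that 1 call in each direction among 8 genes does not set this group apart. The median log2 fold change of the 8 genes was -0.18, with 6 below 0 and 2 above, beside a median of 0.00 over all genes tested.

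**Figure D1:**
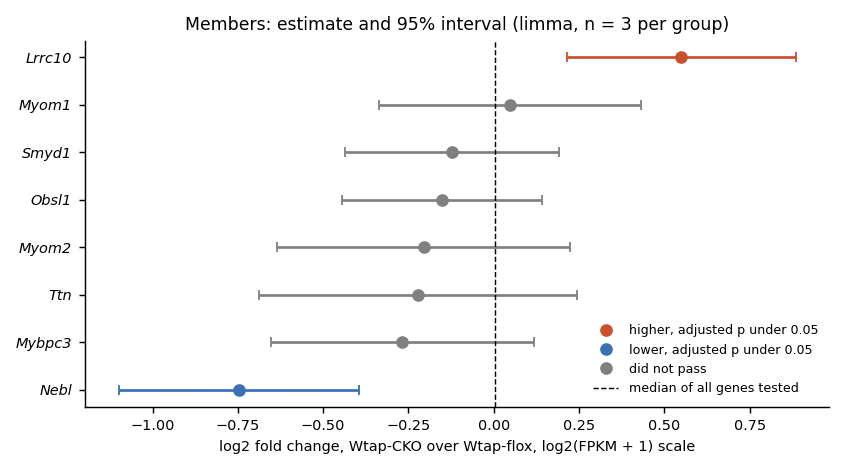
Estimated log2 fold change of the 8 tested genes, Wtap-CKO over Wtap-flox on the log2(FPKM + 1) scale, with 95% intervals from limma (3 libraries per group); the dashed line is the median of all genes tested. The interval of Nebl lies below 0 and that of Lrrc10 above it, and the other 6 intervals cross 0.

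The sequences before annotated start sites are shown for Nebl and Lrrc10 because these are the called genes. They are from RefSeq on GRCm38.p6, 250 bases long and written from 5′ to 3′ on the strand of the gene. Capitals mark matches on either strand to 5 short motifs of cardiac and general factors: the GATA factors with AGATAA, NKX2-5 with TNAAGTG, the MCAT element of TEAD factors with GGAATG, MEF2 with TAAAAATA and the TATA box with TATAAA. Lrrc10 has a single start site, and its window is chr10:117045091-117045340 on the plus strand. Of the 4 start sites that RefSeq gives for Nebl on the minus strand of chromosome 2, the outermost window is chr2:17731135-17731384 and the next is chr2:17670166-17670415.
Lrrc10: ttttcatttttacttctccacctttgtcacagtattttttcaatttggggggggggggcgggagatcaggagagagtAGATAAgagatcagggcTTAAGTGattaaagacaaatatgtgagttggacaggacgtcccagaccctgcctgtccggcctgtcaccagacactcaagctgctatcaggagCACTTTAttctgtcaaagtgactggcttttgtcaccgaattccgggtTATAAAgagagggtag
Nebl, outermost start: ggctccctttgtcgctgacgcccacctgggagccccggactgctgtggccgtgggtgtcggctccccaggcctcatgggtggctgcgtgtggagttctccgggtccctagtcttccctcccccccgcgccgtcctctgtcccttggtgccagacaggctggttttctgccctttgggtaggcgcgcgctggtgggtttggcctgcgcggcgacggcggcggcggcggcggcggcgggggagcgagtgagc
Nebl, next start: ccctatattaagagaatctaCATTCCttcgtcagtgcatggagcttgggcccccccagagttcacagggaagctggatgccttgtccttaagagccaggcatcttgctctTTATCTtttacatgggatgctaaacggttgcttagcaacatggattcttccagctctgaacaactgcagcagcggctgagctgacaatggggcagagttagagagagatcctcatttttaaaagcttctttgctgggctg
The window of Lrrc10 held a GATA match at -173, NKX2-5 matches at -156 and -63 and a TATA box match at -16, as positions of the first letter of the match from the start site. The outermost window of Nebl held no match, and the next held a GATA and an MCAT match. Over all 32851 RefSeq promoters, taken from 250 bases before to 50 bases after the start, 11.2% held the GATA letters, 11.5% those of NKX2-5, 14.7% those of MCAT, 2.72% those of MEF2 and 13.6% those of the TATA box. Among the 11 such promoters found for 8 of the 9 genes, 4 held a GATA match, 2 an NKX2-5 match, 2 an MCAT match, 2 a TATA box match and 0 a MEF2 match. These are counts of start sites and not of genes. A further annotated start of Nebl, with the window chr2:17526131-17526380 that is not shown, also held a GATA match, at -34, and is among the 4. The bases after it and after the last annotated start, with the window chr2:17462857-17463106, both lie near the 5′ end of Nebl-211 in GENCODE vM39. These 2 sites cannot both be the start of that transcript, and whether either is a true start was not tested. The E-box CANNTG, not capitalized above, was in 8 of the 11 and in 72.3% of all promoters. No match overlapped another in the windows shown. A match of letters is a description of the sequence and not a measured site of binding. The deposited values are per gene and do not tell the start sites of Nebl apart. Among GENCODE vM39 transcripts of Nebl, only Nebl-205 held the bases after the outermost start near its 5′ end. No such transcript was found for the next start.

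Nebl showed the clearest difference of the 9 genes. Nebulette is the cardiac relative of nebulin, which binds actin where thin filaments enter the Z-disc, and the same gene also gives a LIM-domain form. Nebl (ENSMUSG00000053702, chr2:17343909-17731464 on the minus strand, GRCm38) stood at 24.2, 20.3 and 23.8 FPKM in Wtap-flox and at 14.8, 14.6 and 10.4 FPKM in the libraries labelled Wtap-CKO. Every Wtap-CKO library lay below every Wtap-flox library, and Wtap-CKO 3 was the lowest. The means were 22.8 ± 2.12 and 13.3 ± 2.48 FPKM (SD, n = 3), so the mean fell by 41.7%. The log2 fold change was -0.75 (SE 0.16, 95% interval -1.10 to -0.40, adjusted p = 0.0132, limma). These values rest on 4927 to 6437 counts per Wtap-flox library and 2798 to 3651 per Wtap-CKO library. With any single library left out Nebl was still called, at log2 fold changes of -0.83 to -0.59 and adjusted p of 0.0174 to 0.0484. It missed the threshold in the fit of all 27201 genes without a filter on low values (adjusted p = 0.0512).

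Lrrc10 moved the other way. Its protein is made in heart muscle cells and is found at the Z-disc, where it binds actin and alpha-actinin, and it has also been placed at the L-type calcium channel. Lrrc10 (ENSMUSG00000060187, chr10:117045341-117046768 on the plus strand, GRCm38) stood at 72.6, 61.9 and 65.6 FPKM in Wtap-flox and at 88.2, 112 and 95.2 FPKM in the libraries labelled Wtap-CKO. The groups did not overlap, and Wtap-CKO 2 was the highest. The means were 66.7 ± 5.40 and 98.5 ± 12.3 FPKM (SD, n = 3), a ratio of 1.48. The log2 fold change was 0.55 (SE 0.15, 95% interval 0.22 to 0.88, adjusted p = 0.0356, limma), from 1406 to 1807 counts per Wtap-flox library and 2033 to 2471 per Wtap-CKO library. This call was less stable than that of Nebl. It passed in 9 of 20 alternative settings and, of the 6 fits that left out a library, only in that without Wtap-CKO 3 (adjusted p = 0.0429, and up to 0.140 in the others). It was also lost with scaling to a fixed total (TPM, adjusted p = 0.111), quantile normalization (0.229) and a total without mitochondrially encoded genes (0.128). The direction was the same in all 20 settings, with log2 fold changes of 0.33 to 0.63.

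**Figure D2:**
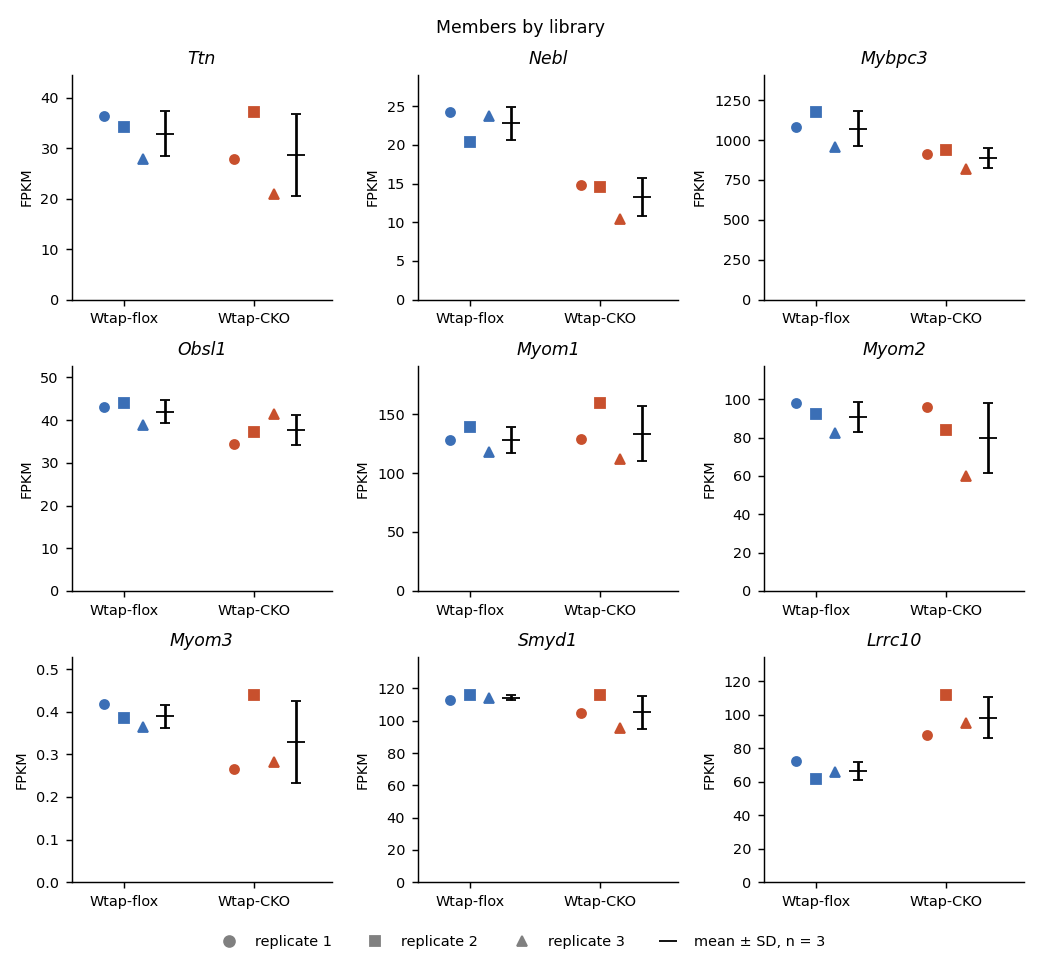
FPKM of the 9 genes in each library, with a linear axis from 0 for each gene; circles, squares and triangles are replicates 1, 2 and 3 of each group, and the bars are the mean and SD of 3 libraries. The groups lie apart for Nebl, Mybpc3 and Lrrc10 and overlap for the other 6 genes.

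Titin itself did not pass. Ttn (ENSMUSG00000051747, chr2:76703980-76982547 on the minus strand, GRCm38) stood at 36.4, 34.2 and 27.9 FPKM in Wtap-flox and at 27.9, 37.1 and 20.9 FPKM in the libraries labelled Wtap-CKO. The groups overlapped, and both the highest and the lowest of the 6 values were in Wtap-CKO. The means were 32.9 ± 4.42 and 28.6 ± 8.16 FPKM (SD, n = 3), with a log2 fold change of -0.22 (SE 0.21, 95% interval -0.69 to 0.24, adjusted p = 0.505, limma). On the scale of FPKM + 1 that interval runs from -37.9% to 18.5%. With 116825 bases of exon, Ttn drew between 42980 and 74202 counts per library. Over the libraries Ttn had a coefficient of variation of 13.5% in Wtap-flox, beside 28.5% for Wtap-CKO. Without Wtap-CKO 3 the log2 fold change was -0.02, and without Wtap-CKO 2 it was -0.42. The share of all counts in Ttn was 0.397 ± 0.0554% in Wtap-flox, beside 0.327 ± 0.0930% for Wtap-CKO (SD, n = 3, p = 0.3 by an exact two-sided permutation test).

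The order of the Ttn values over the libraries was close to that of other long genes. Among 1063 tested coding genes of 10000 or more bases, which include Ttn, Nebl and Myom1, the median deviation from the gene's own mean was 0.10, 0.03 and -0.04 (log2) in Wtap-flox 1 to 3. For Wtap-CKO 1 to 3 this median was -0.05, 0.10 and -0.15. Wtap-CKO 3, lowest in Ttn, was also lowest in this median, and Wtap-flox 1 and Wtap-CKO 2, the highest in Ttn, were the highest in it. Nebl did not follow the same order, since in Wtap-CKO 2, where the long genes were high, it lay below every Wtap-flox library. Like the long genes, Nebl was lowest in Wtap-CKO 3. As a group the long genes had a median log2 fold change of -0.08, with 43 of 1063 called higher and 54 called lower. Among all 12568 genes tested, 1245 were called higher and 841 lower, or 9.91% and 6.69%. The part of gene length in the values of Ttn was not tested.

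**Figure D3:**
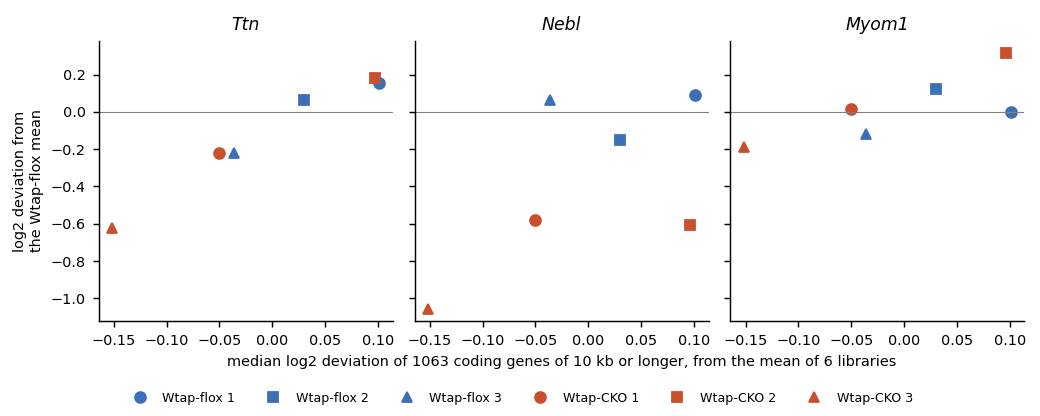
Log2 deviation of Ttn, Nebl and Myom1 from their Wtap-flox mean in each library (vertical axis) against the median log2 deviation of 1063 coding genes of 10000 or more bases from their mean over 6 libraries (horizontal axis). Ttn rises from Wtap-CKO 3 at -0.62 to Wtap-CKO 2 at 0.18 along this axis, while the 3 Wtap-CKO values of Nebl all lie at -0.58 or below.

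The gene of myosin-binding protein C, Mybpc3, was the most abundant of the 9 and stood apart between the groups without passing the test. Its product lies along the thick filament, where it binds myosin, titin and actin and tunes the rate of contraction, and the human gene is a frequent site of mutations in hypertrophic cardiomyopathy. Mybpc3 (ENSMUSG00000002100, chr2:91118144-91136516 on the plus strand, GRCm38) stood at 1083, 1176 and 957 FPKM in Wtap-flox and at 912, 936 and 817 FPKM in the libraries labelled Wtap-CKO. All Wtap-CKO values lay below all Wtap-flox values. The means were 1072 ± 110 and 888 ± 63.0 FPKM (SD, n = 3), with a log2 fold change of -0.27 (SE 0.17, 95% interval -0.65 to 0.12, adjusted p = 0.319, limma). It was not called in any of 20 alternative settings, with adjusted p of 0.0810 to 0.621. Nebl, Mybpc3 and Lrrc10 were the 3 of 8 tested genes whose groups did not overlap, and the same held for 37.1% of all genes tested. Mybpc3 ranked 22 among all genes by mean FPKM.

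The myomesins cross-link thick filaments at the M-band, Myom1 encoding myomesin, Myom2 the M-protein and Myom3 a form found in some skeletal fibres. Myom1 (ENSMUSG00000024049, chr17:71002633-71126856 on the plus strand, GRCm38) stood at 128, 139 and 117 FPKM in Wtap-flox and at 129, 159 and 112 FPKM in the libraries labelled Wtap-CKO. The groups overlapped, the Wtap-CKO values spanning those of Wtap-flox. The log2 fold change was 0.05 (SE 0.17, 95% interval -0.34 to 0.43, adjusted p = 0.873, limma), and its sign turned with quantile, TPM or mitochondria-free scaling. Myom2 (ENSMUSG00000031461, chr8:15057653-15133541 on the plus strand, GRCm38) stood at 97.8, 92.5 and 82.2 FPKM in Wtap-flox and at 95.8, 84.1 and 59.8 FPKM in Wtap-CKO. Here 2 of the Wtap-CKO values lay within the Wtap-flox range and that of Wtap-CKO 3 lay below it. The log2 fold change was -0.21 (SE 0.19, 95% interval -0.63 to 0.22, adjusted p = 0.502, limma), and -0.01 without Wtap-CKO 3.

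Myom3 (ENSMUSG00000037139, chr4:135759715-135815564 on the plus strand, GRCm38) was near the floor of the data. It stood at 0.418, 0.386 and 0.365 FPKM in Wtap-flox and at 0.267, 0.440 and 0.282 FPKM in Wtap-CKO, from 26 to 44 counts per library. The groups overlapped. It entered only the fits with a lower filter or none, where its log2 fold change was -0.07 (adjusted p = 0.722 and 0.733, limma).

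The make-up of the myomesins differed little. Of the summed myomesin FPKM, Myom1 held 58.4 ± 1.74% in Wtap-flox, beside 62.6 ± 4.53% for Wtap-CKO (SD, n = 3, p = 0.3 by an exact two-sided permutation test). Myom2 held 41.4 ± 1.73% and 37.3 ± 4.56% (p = 0.3, same exact test), and Myom3 held 0.178 ± 0.0102% and 0.154 ± 0.0321% (p = 0.2). Wtap-CKO 2 and 3, with 65.3% and 65.1% in Myom1, lay above all Wtap-flox libraries, and Wtap-CKO 1, with 57.4%, lay within their range.

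Obsl1 encodes a cytoskeletal adaptor that binds titin and myomesin at the M-band. Obsl1 (ENSMUSG00000026211, chr1:75479310-75506452 on the minus strand, GRCm38) stood at 43.1, 43.9 and 38.8 FPKM in Wtap-flox and at 34.4, 37.1 and 41.5 FPKM in the libraries labelled Wtap-CKO. The groups overlapped through Wtap-CKO 3 alone. The log2 fold change was -0.15 (SE 0.13, 95% interval -0.45 to 0.14, adjusted p = 0.462, limma). Obsl1 shares 1171 exonic bases, 12.6% of its own in GENCODE vM39, with Tmem198 on the other strand, which stood at 0.406 to 1.47 FPKM, and the sources used here do not give the strand setting of the counting.

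Smyd1 encodes a muscle methyltransferase that assists myosin assembly together with the chaperones Unc45b and Hsp90, and that also acts in the nucleus. Smyd1 (ENSMUSG00000055027, chr6:71213940-71322233 on the minus strand, GRCm38) stood at 113, 116 and 114 FPKM in Wtap-flox and at 105, 116 and 95.3 FPKM in the libraries labelled Wtap-CKO. The Wtap-flox libraries lay close together, and 2 of the 3 Wtap-CKO libraries lay below them. The log2 fold change was -0.12 (SE 0.14, 95% interval -0.44 to 0.19, adjusted p = 0.591, limma). Krcc1 lies on the other strand within Smyd1 and rose from 30.5 to 62.1 FPKM (adjusted p = 0.00287, limma). In GENCODE vM39 the 2 genes share 0 exonic bases. Myl12a, on the other strand of Myom1, rose from 48.9 to 95.6 FPKM (adjusted p = 0.00937, limma). In the same annotation Myl12a shares 246 bases, 1.53% of the 16041 exonic bases of Myom1. The deposited values used another length for Myom1, of 10459 bases.

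**Figure D4:**
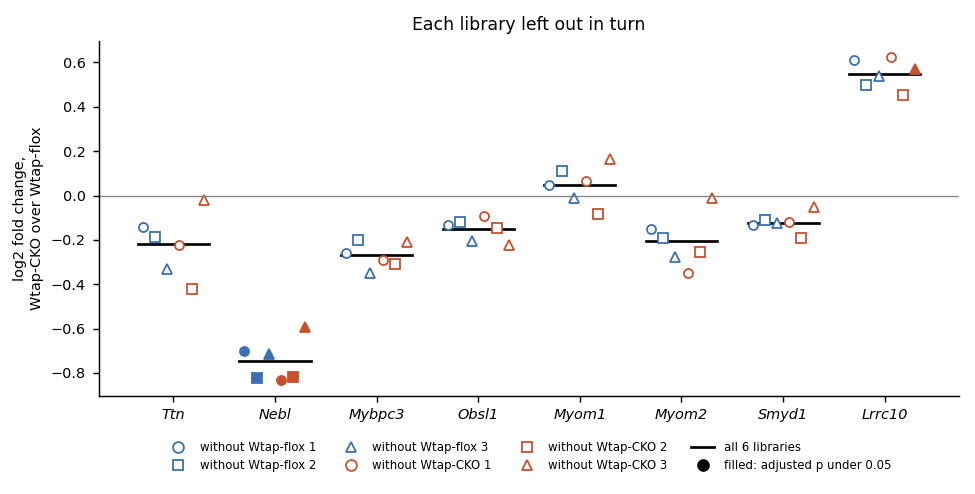
Log2 fold change of the 8 tested genes with each library left out in turn (symbols) and with all 6 libraries (black lines); filled symbols have an adjusted p under 0.05. Nebl stays filled in all 6 fits, Lrrc10 is filled only without Wtap-CKO 3, and Ttn and Myom2 come close to 0 without Wtap-CKO 3.

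The order of levels was much the same in both groups. FPKM is a level per length, here that of all exon bases of a gene, so an order between genes depends on this length. It was 15235 bases for Nebl and 116825 for Ttn, beside 8993 and 107543 bases in their canonical GENCODE transcripts. In Wtap-flox the order of means was Mybpc3, Myom1, Smyd1, Myom2, Lrrc10, Obsl1, Ttn, Nebl and Myom3, and no neighbours in it overlapped in their 3 values, though Myom1 at 117 and Smyd1 at 116 FPKM came within the spread of the former. In Wtap-CKO Lrrc10 stood before Myom2 in the order of means. There Myom1 overlapped Smyd1, Smyd1 overlapped Lrrc10, Lrrc10 overlapped Myom2, and Obsl1 overlapped Ttn. With the lengths used, Nebl lay below Ttn in every library of both groups, and levels per transcript were not compared. Together the 9 genes held 0.506, 0.505 and 0.420% of all FPKM in Wtap-flox and 0.386, 0.418 and 0.323% in Wtap-CKO. The groups did not overlap, but Wtap-flox 3 and Wtap-CKO 2 were nearly equal, and Mybpc3 is the largest term of this sum. The total FPKM, the base of these shares, was 315632, 333612 and 339917 in Wtap-flox and 364948, 357870 and 388328 in Wtap-CKO. It was thus larger in every Wtap-CKO library, and its part in the lower shares was not tested.

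Ratios within a library do not depend on scaling between libraries, and 10 were tested. Per 100 FPKM of Myh6, the main heart myosin gene of the mouse, Nebl stood at 0.626, 0.524 and 0.952 FPKM in Wtap-flox and at 0.514, 0.452 and 0.341 FPKM in Wtap-CKO. The groups lay apart (exact two-sided permutation test, p = 0.1, the smallest that 3 against 3 allows), but Wtap-flox 2 and Wtap-CKO 1 were close. Mybpc3 stood at 32.2 ± 5.45 and 29.1 ± 2.42 FPKM per 100 of Myh6 (p = 0.6, same exact test) and Ttn at 0.980 ± 0.124 and 0.934 ± 0.236 (p = 1). By the same exact test, p was 1 for Obsl1 at 1.27 ± 0.251 and 1.23 ± 0.110 and 0.4 for Myom1 at 3.86 ± 0.746 and 4.36 ± 0.639. For each FPKM of Ttn there was 32.8 ± 2.65 FPKM of Mybpc3 in Wtap-flox, beside 32.4 ± 6.98 for Wtap-CKO (SD, n = 3, p = 1 by an exact permutation test). Adjusted over the 10 ratios, these p-values lay between 0.6 and 1.

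Likeness over the 6 libraries is given as a description, since the libraries share scaling and fall into groups. On the log2(FPKM + 1) scale, Pearson's r was 0.88 between Ttn and Smyd1, 0.80 between Ttn and Myom1 and 0.79 between Ttn and Myom2. It was 0.77 between Nebl and Mybpc3 and -0.78 between Nebl and Lrrc10. Obsl1 had low values with both Ttn (0.11) and Myom1 (-0.20). In a search of 6981 coding genes whose mean reached 5 FPKM, those most like Ttn over the 6 libraries were Prdm2 (0.998), Dicer1 (0.990) and Lama4 (0.990). Those most like Nebl were Cpeb3 (0.998), Fbxo9 (0.997) and Cog5 (0.995), and those most like Lrrc10 were Prps1l3 (0.997), Tsr3 (0.989) and Syde1 (0.986). With 6 points and so many genes searched, values of this size describe likeness in these libraries only.

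The transcripts of the 9 genes differ widely in the sequence that the m6A writer complex acts on. The mark is placed within a short consensus of which GGACT is a common form, mostly in long exons and near stop codons, and it was not measured here. The following windows show where the GGACT nearest to the stop codon lies in the longest, the most abundant and the lower transcript. They are from the GENCODE vM39 canonical transcripts, written 5′ to 3′ with T for U, and capitals mark GGACT.
Ttn: aaacaagatggcGGACTttataccctaag
Mybpc3: tgcatcctggaaGGACTggccagcagtga
Nebl: gagtagtttgcaGGACTcacacacttgtg
The window of Ttn is in the coding sequence, that of Mybpc3 begins 126 bases and that of Nebl 1359 bases after the last coding base, with positions counted to the first G. The Ttn transcript is 107543 bases long with 347 exons, the longest of 17106 bases, and holds 78 GGACT, or 0.725 per kb. That of Mybpc3 is 4140 bases long with 34 exons, the longest of only 274 bases, and holds 6 GGACT. That of Nebl is 8993 bases long with 26 exons, the longest of 6215 bases, and holds 2 GGACT, both in its 3′ UTR, or 0.222 per kb. That of Lrrc10 is a single exon of 1428 bases and holds 0. The other transcripts held 4 in Obsl1, 8 in Myom1, 5 in Myom2, 10 in Myom3 and 1 in Smyd1. Over 11095 coding genes the median was 1.05 per kb, 93.8% held at least 1 and 2.03% had a single exon. The called genes, Nebl and Lrrc10, were thus both below the median density, as were Ttn, Obsl1, Myom2 and Smyd1, which were not called.

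The lists of related genes were set beside the 9, and 50 of their 57 members were tested. Of these 9 were higher and 7 lower in the libraries labelled Wtap-CKO, with a median log2 fold change of -0.08. Over all genes tested 9.91% were called higher and 6.69% lower, and several counts below are near those shares. No test was made of any list.

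Among 8 myosins and their light chains, 1 was higher and 2 lower, with a median of -0.15. Myl4, the atrial essential light chain, was higher at 17.1 against 46.5 FPKM (log2 fold change 1.37, adjusted p = 0.0194, limma). Mylk3, the cardiac myosin light chain kinase (-0.62, adjusted p = 0.0316), and the slow myosin Myh7b (-0.78, adjusted p = 0.0499) were lower, each called in 1 of 6 fits with a library left out. Myl7, the atrial regulatory light chain, stood at 154, 52.4 and 95.9 FPKM and at 23.0, 16.9 and 44.8 FPKM (adjusted p = 0.0720) and did not pass. Of the relatives of Mybpc3, 2 of 4 were tested. Mybphl, a myosin-binding protein H of the atria, stood at 5.84, 1.87 and 4.73 FPKM in Wtap-flox and at 0.243, 0.203 and 0.845 FPKM in Wtap-CKO, without overlap (-1.78, adjusted p = 0.0171), and was called in 3 of 6 fits with a library left out. Mybpc2 had -0.12 and did not pass. The 5 atrial markers summed to 173 to 231 FPKM in Wtap-flox, and for Wtap-CKO to 604 to 1701 FPKM, and the part of it in Nppa was 48.5 to 131 and 555 to 1606 FPKM. Of the 4 tested, Myl4 and Nppa were higher and the other 2, Myl7 and Sln, were lower only at an unadjusted p under 0.05, while Bmp10, below the filter, stood at 0.518 to 1.35 and at 0.0414 to 0.152 FPKM. The part of atrial tissue in the values of Mybphl, Myl4 and Myl7 was not tested.

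Among 10 partners of the M-band and of the titin kinase domain, 1 was higher and 3 lower, with a median of -0.39. At an unadjusted p under 0.05 there were 6 lower, limma-voom called 5 lower, quantile, TPM and mitochondria-free scaling 6 and array weights 7. Fhl2, a LIM protein that binds titin and carries metabolic enzymes to it, was lower at 613 against 365 FPKM (log2 fold change -0.74, adjusted p = 0.0140, limma). The muscle creatine kinase Ckm, bound at the M-band, was lower at 385 against 254 FPKM (-0.60, adjusted p = 0.0344). Ank1, whose small muscle form links the sarcoplasmic reticulum to the sarcomere, was lower (-0.59, adjusted p = 0.00862) and was the only 1 of the 3 called with each of the 6 libraries left out. The values of Ank1 are per gene and do not tell this form from others. The ubiquitin ligase gene Trim54 was higher (0.66, adjusted p = 0.0319), but in only 11 of 20 alternative settings and 2 of 6 fits with a library left out, and not with TPM or mitochondria-free scaling. Its relative Trim55 did not pass at -0.51 (adjusted p = 0.0542).

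Among partners of titin in the I-band and Z-disc, 7 of 9 were tested. Of these 4 were higher and 0 lower, with a median of 0.72. At an unadjusted p under 0.05 or by limma-voom on counts, 0 were lower. These counts depend on the lists, since Fhl2, which also binds titin and was called lower, stood in the list above. Ankrd1, a stress-responsive protein bound to the N2A spring element of titin, was higher at 647 against 2187 FPKM (log2 fold change 1.87, adjusted p = 0.00620, limma). Fhl1, a LIM protein of the N2B element, was higher at 60.6 against 175 FPKM (1.52, adjusted p = 0.000787). Csrp3, the muscle LIM protein, and Cryab, a small heat-shock protein that binds the spring region, were higher by 1.11 (adjusted p = 0.00519) and 0.72 (adjusted p = 0.0236). Ankrd1, Fhl1 and Csrp3 were called with each library left out and Cryab in 2 of 6 such fits. Tcap, which joins 2 titin molecules at the Z-disc, did not pass at 0.35 (adjusted p = 0.358).

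Among relatives and partners of nebulette, 6 of 8 were tested, of which 2 were higher and 0 lower, with a median of 0.17 and 3 of 6 below 0. At an unadjusted p under 0.05 there was 1 lower, as there was by limma-voom. Xirp2, an actin-binding protein of the intercalated disc, was higher at 4.32 against 32.6 FPKM (log2 fold change 2.66, adjusted p = 4.40e-05, limma), and was called in all 20 alternative settings. The intermediate filament gene Des was higher at 342 against 585 FPKM (0.77, adjusted p = 0.0176), in 3 of 6 fits with a library left out. Mypn, a Z-disc protein that binds nebulette, had -0.43 (adjusted p = 0.0709), with all Wtap-CKO values below those of Wtap-flox. It was called lower with quantile normalization, TPM or mitochondria-free scaling, array weights, limma-voom and without Wtap-CKO 2. Neb itself was at most 0.153 FPKM, and the Z-disc gene Myot, also below the filter, stood at 0.798 to 0.945 FPKM in Wtap-flox and at 0.282 to 0.469 FPKM in Wtap-CKO.

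Around Smyd1, 8 of 9 relatives and myosin chaperones were tested and 0 were called by limma, with a median of 0.10. At an unadjusted p under 0.05 there were 2 higher and 1 lower, and limma-voom called 1 higher and 0 lower. Hsp90aa1 came nearest with 0.63 (adjusted p = 0.0527). Among 9 splicing regulators listed with titin, 1 was higher and 1 lower, with a median of -0.09. Their action on Ttn was not tested. The splicing factor gene Rbfox1 stood at 4.82, 3.56 and 2.96 FPKM in Wtap-flox and at 0.760, 1.28 and 1.06 FPKM in Wtap-CKO (log2 fold change -1.22, adjusted p = 0.00252, limma), and was called with each library left out. Ptbp2 was higher (0.45, adjusted p = 0.0231), and in 2 of 6 such fits. Rbm20, the main splicing regulator of the titin spring, had -0.34 (adjusted p = 0.212). Isoforms of titin cannot be read from values per gene.

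**Figure D5:**
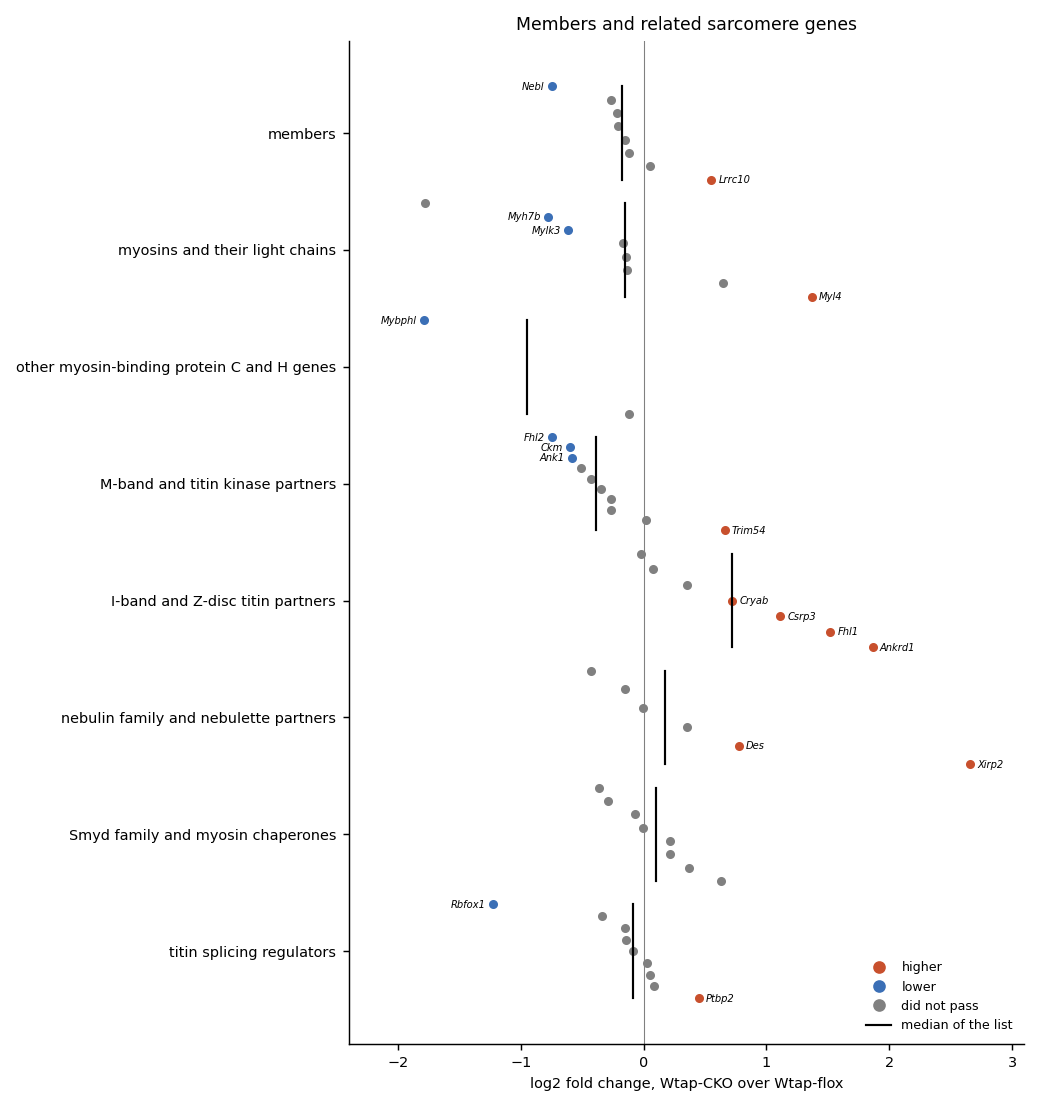
Log2 fold change, Wtap-CKO over Wtap-flox, of the 8 tested genes (top row, members) and of the tested genes in 7 lists of related genes, 1 point per gene; colours mark genes with an adjusted p under 0.05 and black bars the median of each list. With the genes placed as in these lists, the median lies at -0.39 for partners of the M-band and titin kinase. It lies at 0.72 for partners of titin in the I-band and Z-disc.

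Markers of other cell types were summed for the same libraries. The 6 macrophage markers summed to 42.4 to 49.8 FPKM in Wtap-flox, and for Wtap-CKO to 64.1 to 126 FPKM, without overlap, and 2 of the 6 genes were called higher. The sum of 7 fibroblast markers was 594 to 688 and 443 to 622 FPKM, with overlap, and Dcn and Lum were lower. The sum of 6 endothelial markers was 212 to 240 and 203 to 221 FPKM, with overlap, and Emcn was higher and Kdr lower. Of 3 tested smooth muscle markers Cnn1 was higher (adjusted p = 0.0133, limma). The sum of 3 erythroid markers was 601 to 2073 FPKM in Wtap-flox and 1140 to 1942 FPKM in Wtap-CKO, with overlap, and 0 were called. The part of these in the values of Nebl and Lrrc10 was not tested.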

How the data were processed

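Polyadenylated RNA of 6 whole mouse hearts, 3 Wtap-flox and 3 Wtap-CKO as labelled, was read as pairs of 150 bases. The tools were CASAVA, HISAT2 2.0.5 (alignment), featureCounts 1.5.0-p3 (counting) and DESeq2 1.20.0 (the authors' test), per the submitters' processing notes. The authors deposited FPKM for 54532 genes, 1 column per library, with 0 such columns unused. Multiplied by gene length, 100.0% of the values of a library were whole multiples of a common step, which gave the counts. The tolerance was 0.01 of the step, widened in proportion for large counts. This check is therefore weak for genes with very many counts, such as Ttn and Mybpc3. The notes name GRCm39, but gene positions in the table are those of GRCm38, so coordinates are given as GRCm38. Transcript structure is from GENCODE vM39 on GRCm39 and promoters from RefSeq.

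The 9 genes, the lists of related genes and markers, and the rule for naming genes were chosen with earlier results of these data known. Named were the 9, Wtap, each called gene of a list, the first uncalled gene of each list by adjusted p, the 3 most correlated genes for Ttn and the called genes, and markers that move with a result. Genes that overlap the 9 were added after their values were seen.

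Genes whose mean reached 1 FPKM were tested on log2(FPKM + 1) with limma 3.58.1 (R 4.3.3), using a variance trend and robust moderation. Two-sided p-values were adjusted by Benjamini-Hochberg over 12568 genes, with a threshold of 0.05 and intervals at 95%. The pseudocount of 1 understates changes of low genes. Ratios were compared by exact permutation tests, whose smallest p is 0.1. Another planned ratio is not reported here. The fit was tested on simulated data. Alternatives were other pseudocounts, filters and scalings, moderation without trend or robustness, array weights, a replicate block, limma-voom on the recovered counts and each library left out. Limma-voom used the library sizes implied by the FPKM, so it kept their scaling. Tables and plots used matplotlib 3.10.9, scipy 1.17.1, pandas 2.3.3, numpy 2.4.6 and Python 3.11.15.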

Additional observations from a re-analysis of the deposited data

How the results depend on the processing

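Nebl was called lower in 19 of 20 alternatives and Lrrc10 higher in 9 of 20, with no change of sign in either, and the other 6 tested genes were called in none. Of the 2 calls among the 8 genes, 0 were left without a filter (0 higher and 0 lower), and 1 was left (0 higher) with a mean of at least 0.1 FPKM, quantile normalization, TPM scaling, mitochondria-free scaling or the replicate block. With each library left out there were 1 to 2 calls, 0 to 1 of them higher. Among the lists, 9 higher and 7 lower became 5 and 4 without a filter, and 5 to 8 higher and 2 to 7 lower with a library left out. There were 11 lower with quantile normalization, 12 with TPM or mitochondria-free scaling and 14 with array weights. Over all genes, 2086 calls (1245 higher, 841 lower) became 1206 (723 and 483) without a filter and 3732 (2056 and 1676) with array weights. With a library left out there were 1189 to 2016 calls, 715 to 1187 higher and 417 to 829 lower, in fits of fewer samples. At a mean of at least 5 FPKM 471 were lower. TPM scaling gave 793 higher and 1601 lower and mitochondria-free scaling 768 and 1597, with the median of all genes shifted to -0.14 in both, so that 33.1% and 32.5% of calls were higher against 59.7%. Limma-voom on counts called 2537 genes, with both Nebl and Lrrc10 among them. The cause of these changes was not tested.

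The sign of Myom1 turned to -0.13 with quantile normalization, -0.12 with TPM scaling, -0.13 with mitochondria-free scaling and -0.0005 with array weights, and its range was -0.0847 to 0.165 with a library left out. The difference in Ttn per 100 FPKM of Myh6 ranged from -0.156 to 0.0788 with a library left out, that in Obsl1 from -0.109 to 0.113 and that in Mybpc3 per Ttn from -3.84 to 3.13. As the median of differences between same-numbered libraries, a replicate block for ratios, these were 0.0249, 0.0223 and 2.97. The replicate numbers showed no sign of pairing the libraries. Deviations from the group means correlated at -0.216, -0.0752 and -0.0764 between same-numbered libraries, beside -0.138 to 0.264 between others. With only 3 libraries per group, these values cannot decide whether the libraries were paired. The replicate block called 1673 genes, with adjusted p = 0.0171 for Nebl and 0.0768 for Lrrc10. Counts per library were at least 1406 for the 8 tested genes and 26 to 44 for Myom3, so depth was low for Myom3.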
